A study of Mus musculus with 12 samples.

Results

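The messages described here encode the proteins of the cytosolic ribosome. They were chosen by mouse gene symbol, as protein-coding genes named Rps or Rpl with a number, together with Rpsa, Rplp0, Rplp1, Rplp2 and Fau. Pseudogenes, the Rps6k kinases and Rpl10a, the protein that carries the tag in these mice, were left out. This gave 86 of the 41388 gene identifiers in the files. By symbol alone, 34 of them were grouped with the small subunit and 51 with the large subunit, paralogs included. The remaining gene, Rps19bp1, encodes a binding partner of a ribosomal protein and was kept apart. The 85 genes include 8 paralogs, lie on 20 chromosomes, and 76 of them (30 small and 46 large subunit) had enough counts to be tested.

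The RNA was that of hippocampus and cortex, taken on postnatal day 21 from C57/Bl6 mice, and all 12 libraries came from mice that carried the Aldh1L1::RPL10a-eGFP transgene, so no group lacks it. The Aldh1l1 promoter is active in astrocytes, and translating ribosome affinity purification (TRAP) pulls ribosomes with the GFP-tagged protein, and the RNA on them, out of a lysate. There were 4 groups of 3 libraries: cortex input, the RNA before purification; cortex TRAP, its purified RNA; synaptoneurosome input, RNA of a sucrose gradient layer rich in detached synapses with the fine processes that wrap them; and PAP TRAP (peripheral astrocyte process TRAP), the RNA purified from that layer. Cycloheximide at 1 ug/mL, which stops ribosomes on their messages, and TTX, a sodium channel blocker, at 1 mM are listed for all groups. The labels give every library the cell type astrocytes and 1 shared extraction text, and nothing in them says that the libraries of a group came from separate animals, so p-values measure only the spread between libraries, which may be technical.

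A ribosome has a small subunit, which reads the message, and a large subunit, which joins amino acids into a chain and releases it through an exit tunnel. Cells make the ribosomal proteins in matched amounts, and the messages for them are short, abundant and begin at a C followed by a run of pyrimidines, the terminal oligopyrimidine (TOP), through which the kinase mTOR and the RNA-binding protein Larp1 set their translation. In neurons, such messages are among those known from axons and dendrites.

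The start of these messages is shown first, because the TOP is the sequence feature they are known for. In RefSeq (build GRCm38.p6), 65 of the 85 genes had an entry. A C at the annotated start followed by at least 4 bases that are C or T was present in 15 of the 65 (23.1%) and in 813 of all 27025 genes of that table (3.01%), searched on the strand of the gene. With the C allowed within 5 bases of the annotated start, 31 members (47.7%) and 21.2% of all genes had it. Runs at the start were 5 to 13 bases long, with a median of 8. Each line below gives 15 bases before and 15 bases from the annotated start, with the run in capitals. They are Rplp2 of the ribosomal stalk, Rpl14, Rps10, Rps21 and Rps15a, which the results below describe, Rpl15, with the longest run of those shown, Rps6, the substrate of the S6 kinases, and Rpl41, which has no such run at this start.
Rplp2 (chr7:141447636-141447665, plus strand): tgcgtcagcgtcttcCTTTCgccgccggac
Rpl14 (chr9:120571502-120571531, plus strand): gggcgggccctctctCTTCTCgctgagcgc
Rps10 (chr17:27635230-27635259, minus strand): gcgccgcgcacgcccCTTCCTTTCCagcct
Rps21 (chr2:180257364-180257393, plus strand): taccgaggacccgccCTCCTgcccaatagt
Rps15a (chr7:118116133-118116162, minus strand): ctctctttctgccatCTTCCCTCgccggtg
Rpl15 (chr14:18270972-18271001, minus strand): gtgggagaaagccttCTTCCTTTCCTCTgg
Rps6 (chr4:86857353-86857382, minus strand): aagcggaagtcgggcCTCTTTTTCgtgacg
Rpl41 (chr10:128549154-128549183, minus strand): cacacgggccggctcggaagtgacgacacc
The run follows the C directly in each of the first 7 lines. Rpl41, one of the members that differed most between groups, has none at this annotated start, and other starts were not searched. A match is a description of these letters and no evidence of regulation.

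Many of these genes have near-identical processed copies elsewhere in the genome, and the authors' counting may have left such reads out. Of the 85 genes, 52 have a pseudogene row named after them, and 38 share exon bases with another gene. Across all 12 libraries the members held 126459 counts, and the pseudogene rows named after them 2793. The median member had 52.6% of its 50-base transcript windows found in no transcript of another gene, against 99.9% for all protein-coding genes. Rpl4, with 83.6% unique windows, had 20544 counts in all libraries, while Rps6, with 15.4%, had 35. Among the 77 members that are no paralogs, the 16 with under 25% unique windows had a median of 140.5 counts, the 49 with 25 to 75% a median of 824, and the 12 with 75% or more a median of 3230.5. Counts were thus low where windows were shared and higher where they were unique, with wide overlap between the classes, since Rpl30 (20.8% unique) reached 1612 counts. Spearman's rho across these 77 genes between level and unique share lay between 0.42 and 0.48 in the 4 groups. These are genes of the same libraries and not replicates. Part of a member's reads can be missing from its row, and levels of different members are uncertain for that reason. Reads of any gene aligned to more than 1 place also differed by group. They made up 17.5 to 18.6% of all reads in the cortex inputs and 29.9 to 32.5% in cortex TRAP. In the synaptoneurosome input they made up 16.1 to 19.5%, and in PAP TRAP 21.3 to 29.3%. What this does to the differences between groups was not tested.

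**Figure D1:**
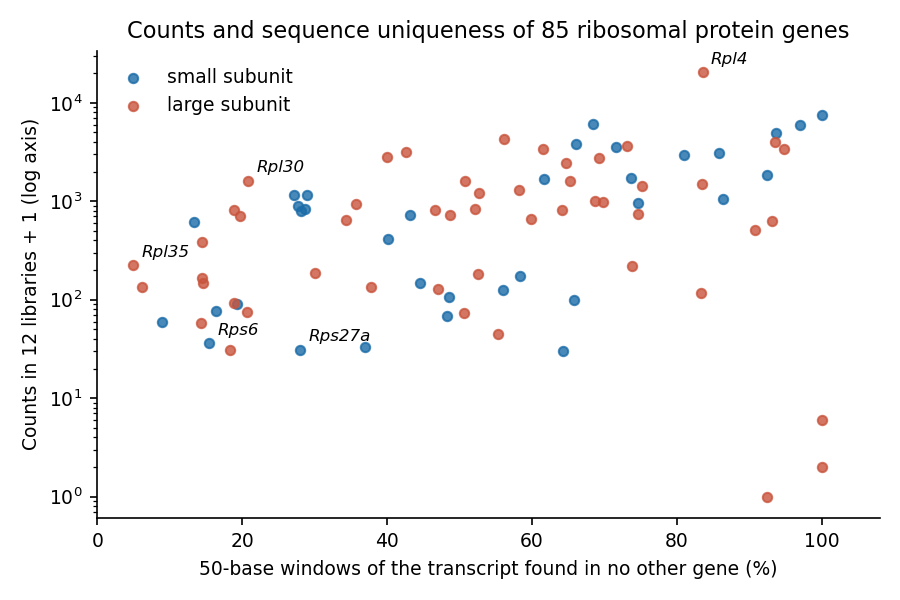
Summed counts of each of the 85 ribosomal protein genes over the 12 libraries (plus 1, log axis) against the share of its 50-base transcript windows that occur in no transcript of another gene, in percent. Genes with few unique windows mostly lie low, with Rps6 at 35 counts and Rpl4, 83.6% unique, at 20544.

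The 9 members that could not be tested were Rpl17, Rpl24, Rps6, Rps27, Rps27a and Rps29 and the paralogs Rpl3l, Rpl39l and Rpl10l. Rps6 had 3, 4 and 4 counts in the cortex inputs, 5, 4 and 8 in cortex TRAP, 0, 1 and 2 in the synaptoneurosome input and 3, 1 and 0 in PAP TRAP. Rps27a, made as a fusion with ubiquitin, had 1, 4 and 2, then 1, 7 and 6, then 0, 1 and 1, then 1, 2 and 4. These counts are too low to order the groups. The same held for Rpl17 (highest library 10 counts), Rpl24 (11), Rps27 (11) and Rps29 (7). Rpl3l, the form known from muscle, had 5 counts in all libraries, Rpl39l had 1, and Rpl10l, known from testis, had 0, which allows at most 0.0493 CPM (a gene's counts relative to the library total, here that of nuclear genes). Rps12 and Rps27rt passed the filter through other groups but had 0 counts in every synaptoneurosome input library. No fold is given for them against that group.

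Per kilobase of transcript, the highest levels were those of Rpl4, a large subunit protein that lines the exit tunnel. Length here and below is that of the longest annotated protein-coding transcript of a gene, which need not be the form present. Its level was 162 nuclear CPM per kilobase in cortex input, 282 in cortex TRAP, 229 in the synaptoneurosome input and 215 in PAP TRAP. Rps15 was the second in all groups, at 123, 280, 126 and 133. In cortex input the member at the 90th percentile stood 51.5 times above that at the 10th, and 43.1 times when levels were set per kilobase of unique windows. The share of reads lost to near-identical copies was not measured. The order of the members was similar in every group, with Spearman's rho from 0.926 to 0.955 over the 76 tested genes.

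Depth limits how small a change could be seen. Each library held 4918113 to 17553985 counts on genes, of which 1423296 to 7777763 lay on nuclear genes and 2340 to 24590 on ribosomal protein genes. Genes of the mitochondrial chromosome took 44.8 to 50.2% of gene counts in the cortex inputs, 1.03 to 1.28% in cortex TRAP, 83.8 to 91.9% in the synaptoneurosome input and 35.6 to 47.6% in PAP TRAP, so shares are given of nuclear counts. The 26 astrocyte markers took 0.997 to 1.07% of nuclear counts in the cortex inputs, 9.44 to 13% in cortex TRAP, 4.49 to 5.44% in the synaptoneurosome input and 5.43 to 10.7% in PAP TRAP. The 20 neuron markers took 2.23 to 2.5%, 0.239 to 0.355%, 1.4 to 1.84% and 0.653 to 0.982%. The 14 messages of dendrites and neuropil took 1.09 to 1.29%, 0.228 to 0.247%, 1.87 to 2.17% and 3.08 to 4.65%, and the oligodendrocyte markers 0.452 to 0.496%, 0.066 to 0.0962%, 0.618 to 0.816% and 0.803 to 1.07%. The astrocyte and neuron lists had counts on every marker in every group, so each group held RNA of astrocytes and of neurons. In such bulk samples fewer cells of a type and less RNA per cell cannot be told apart.

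Ribosomal protein messages took the largest share of nuclear counts in cortex TRAP. The share was 0.173, 0.159 and 0.14% in the 3 cortex input libraries (mean 0.157% ± 0.0165, SD, n = 3) and 0.316, 0.355 and 0.333% in cortex TRAP (0.335% ± 0.0192). It was 0.164, 0.174 and 0.108% in synaptoneurosome input (0.149% ± 0.0355) and 0.115, 0.191 and 0.127% in PAP TRAP (0.144% ± 0.0411). Every cortex TRAP library lay above every other library, and the other 3 groups overlapped. The mean of cortex TRAP was 2.13 times that of cortex input and 2.32 times that of PAP TRAP, while PAP TRAP stood at 0.971 times its own input and synaptoneurosome input at 0.946 times cortex input. Of all gene counts, mitochondrial genes included, the share in PAP TRAP was 5.32 times that in its input, and in cortex TRAP 4.06 times. No p is given for a sum over chosen genes.

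Cortex TRAP was the highest group for both subunits. Small subunit messages took 0.0685% ± 0.00538 in cortex input, 0.138% ± 0.0122 in cortex TRAP, 0.0599% ± 0.0148 in the synaptoneurosome input and 0.0601% ± 0.0169 in PAP TRAP (SD, n = 3 each). Large subunit messages took 0.0885% ± 0.0113, 0.197% ± 0.00817, 0.0888% ± 0.0207 and 0.0842% ± 0.0242. From cortex input to cortex TRAP the small subunit mean differed 2.01 times and the large subunit mean 2.22 times. The ratio of small to large subunit counts was 0.778 ± 0.0491 in cortex input, 0.699 ± 0.0424 in cortex TRAP, 0.673 ± 0.012 in the synaptoneurosome input and 0.715 ± 0.0182 in PAP TRAP. All 3 synaptoneurosome inputs had a lower ratio than any cortex input and than any PAP TRAP library. Rpl4 alone held 20544 of the members' 126459 counts over all libraries. Its level was 162 nuclear CPM per kilobase in cortex input, 282 in cortex TRAP, 229 in the synaptoneurosome input and 215 in PAP TRAP. The large subunit sums thus rest in part on this gene, and the ratio without it was not computed.

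**Figure D2:**
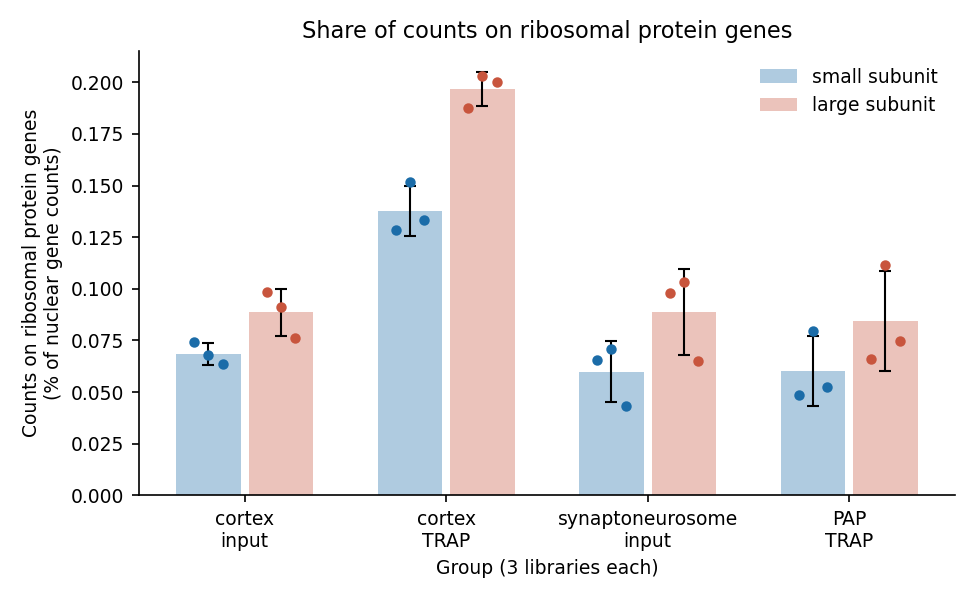
Share of nuclear counts on small and large subunit messages, in percent, in the 4 groups. Bars are means, error bars SDs and points the 3 libraries of each group. The cortex TRAP libraries lie above all others for both subunits, at means of 0.138% and 0.197%.

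The comparison of cortex TRAP with cortex input shows which of these messages were more or less abundant in the purified RNA than in the tissue. As no group lacks the tag, RNA carried along without tagged ribosomes was not measured. Of the 76 genes tested, 29 were higher in cortex TRAP (12 small and 17 large subunit) and 0 were lower. Changes here are log2 values with their SE, and a gene was called at an adjusted p under 0.05 from edgeR's quasi-likelihood test with Benjamini-Hochberg adjustment over 13364 genes. Of all genes tested, 15.9% were higher and 19.5% lower. The members' median change was 1.45 on the log2 scale (1.51 for the small and 1.42 for the large subunit), beside 0.05 for all genes, and 72 of the 76 lay above 0. In 63 members all 3 cortex TRAP libraries lay above all 3 inputs, which held for 27.4% of all genes.

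**Figure D3:**
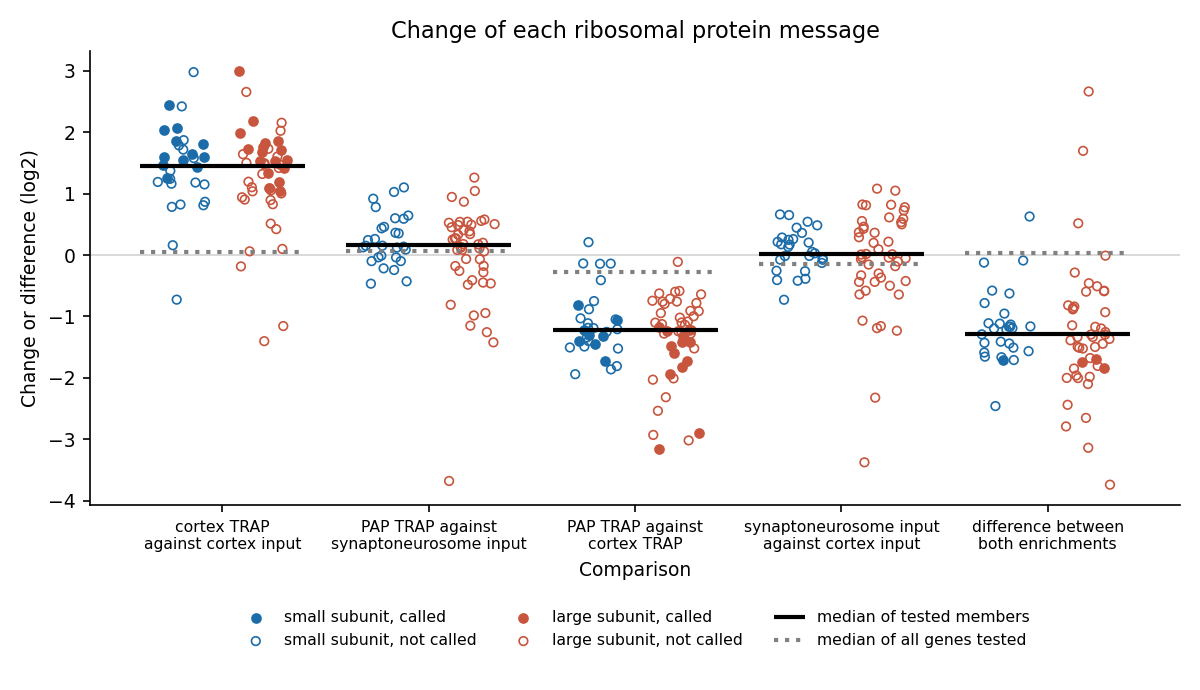
Log2 change of each tested ribosomal protein gene in the 5 comparisons. Filled points are genes called at an adjusted p under 0.05, black lines the members' median and dotted lines the median of all genes. Members lie above the dotted line for cortex TRAP against cortex input (median 1.45) and below it for PAP TRAP against cortex TRAP (median -1.22); genes with a group at 0 counts are left out.

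Rpl37a, Rpl41, Rps14 and Rplp2 were among the 5 largest called rises of well-counted members. Rpl41, the smallest ribosomal protein, had 13.5, 12.4 and 14.1 normalized CPM in cortex input, 51.8, 58.2 and 71.4 in cortex TRAP, 11.8, 20 and 8.69 in the synaptoneurosome input and 12.1, 23.2 and 15.7 in PAP TRAP. Only the cortex TRAP libraries were high, and the other groups overlapped. Rpl41 rose 4.54-fold (95% interval 2.65 to 7.78, log2 2.18 ± 0.37, edgeR adjusted p = 0.000117). Rps14, a protein of the small subunit platform, had 9.53, 10.1 and 14.7 CPM in cortex input, 58.9, 33.6 and 51.8 in cortex TRAP, 8.51, 10.7 and 14.5 in the synaptoneurosome input and 9.83, 14.3 and 19.5 in PAP TRAP. Here too the cortex TRAP libraries stood alone, and Rps14 rose 4.21-fold (2.39 to 7.39, edgeR adjusted p = 0.000313).

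Rpl37a had 9.97, 6.58 and 3.55 CPM in cortex input, 132, 13.5 and 14.9 in cortex TRAP, 7.29, 7.76 and 3.86 in the synaptoneurosome input and 4.56, 9.75 and 7.15 in PAP TRAP. A single library, cortex TRAP replicate 1 with 2325 counts against 163 and 249 in the other two, carried its log2 change of 2.99 ± 0.71 (edgeR adjusted p = 0.00256). Without that library the change was 0.95 with an adjusted p of 0.265, and DESeq2 did not call it.

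**Figure D4:**
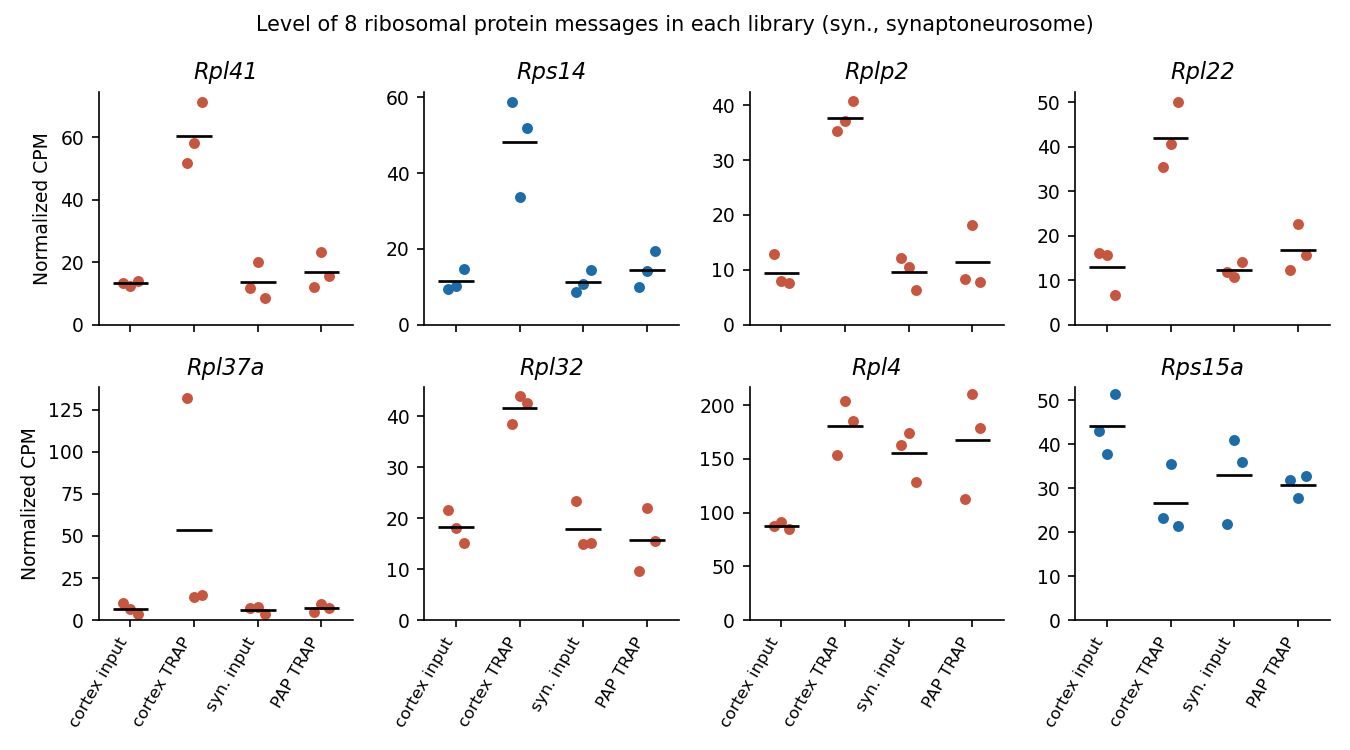
Normalized CPM of 8 ribosomal protein genes in each library, by group. Points are libraries and lines the group means. Rpl41, Rps14, Rplp2 and Rpl22 are high only in cortex TRAP, Rpl37a has a single cortex TRAP library at 132, Rpl4 is above its cortex input in the other 3 groups, and Rps15a is lower in cortex TRAP than in cortex input.

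By role, the stalk of the large subunit, which recruits elongation factors, had 3 of its 4 members higher in cortex TRAP. Rplp2 had 12.8, 7.98 and 7.58 CPM in cortex input, 35.2, 37.1 and 40.7 in cortex TRAP, 12.2, 10.5 and 6.37 in the synaptoneurosome input and 8.34, 18.2 and 7.77 in PAP TRAP, again with the cortex TRAP libraries alone at the top. It rose 3.97-fold (2.13 to 7.41, edgeR adjusted p = 0.00117). Rplp1 had 16.4, 11.1 and 12 CPM in cortex input and 22, 37 and 40.8 in cortex TRAP, a log2 change of 1.33 ± 0.38 (edgeR adjusted p = 0.00893). Rplp0, which anchors both to the ribosome, went from 4.71, 5.78 and 4.4 to 11, 19.2 and 12.7 CPM, a change of 1.52 ± 0.50 (edgeR adjusted p = 0.0228). Leaving out single libraries ended the call of Rplp1 in 4 of 12 fits and that of Rplp0 in 5, with adjusted p-values up to 0.0833 and 0.148. Rpl12, at the base of the stalk, had 72 counts in all libraries and a change of 1.08 ± 1.05 (edgeR adjusted p = 0.46).

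Around the exit of the tunnel, Rpl22 and Rpl39 were higher in cortex TRAP. Rpl22 had 16.1, 15.7 and 6.79 CPM in cortex input, 35.4, 40.6 and 50.1 in cortex TRAP, 11.8, 10.7 and 14.1 in the synaptoneurosome input and 12.2, 22.6 and 15.6 in PAP TRAP. The cortex TRAP libraries were the highest, and Rpl22 rose by 1.71 ± 0.39 on the log2 scale (edgeR adjusted p = 0.00199). Rpl39 had 8.09, 5.72 and 4.83 CPM in cortex input and 17.8, 22.1 and 14.3 in cortex TRAP, a change of 1.54 ± 0.54 (edgeR adjusted p = 0.0308) that lost its call in 6 of 12 fits without a library (adjusted p up to 0.162). Rpl26 had a change of 1.48 with an adjusted p of 0.0585. Rpl19, Rpl23a, Rpl31, Rpl35 and Rpl38 were called in none of the 5 comparisons. Rpl31 had 186 counts, against 707 in the 21 pseudogene rows named after it, and with those rows added it was higher in cortex TRAP (1.78, edgeR adjusted p = 0.0213).

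Other well-counted members rose as well. Rps15, near the decoding site, had 23.6, 26.5 and 24.6 CPM in cortex input and 71.6, 75.5 and 54.3 in cortex TRAP, a change of 1.43 ± 0.30 (edgeR adjusted p = 0.000793). Rpl8, near the peptidyl transferase centre, had 15, 15.3 and 11 CPM and then 48.1, 43 and 48, a change of 1.75 ± 0.38 (edgeR adjusted p = 0.00128). In both, all cortex TRAP libraries lay above all cortex inputs. Rpl4 had 87.8, 91.3 and 84.8 CPM in cortex input, 153, 204 and 186 in cortex TRAP, 163, 174 and 129 in the synaptoneurosome input and 113, 210 and 179 in PAP TRAP. Its cortex inputs were the lowest libraries, and it rose 2.06-fold in cortex TRAP (1.42 to 2.99, edgeR adjusted p = 0.00352).

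Among proteins with scaffold or signalling contacts, Rpl13a, known from interferon-dependent translational silencing, had 20.5, 14.6 and 11.5 CPM in cortex input and 30.3, 34 and 35.4 in cortex TRAP, a change of 1.09 ± 0.37 (edgeR adjusted p = 0.0269; lost in 6 of 12 fits without a library, adjusted p up to 0.205). Rps3, which also takes part in DNA repair, had 36.4, 29.2 and 25.9 CPM and then 58.9, 60 and 43.3, which missed the threshold (0.82 ± 0.34, edgeR adjusted p = 0.0678). Rpsa, the laminin receptor precursor, changed by 1.15 ± 1.02 (edgeR adjusted p = 0.41) at under 2 CPM in every library. Rpl5 and Rpl11, which with 5S RNA form the particle that binds Mdm2, changed by 0.06 ± 0.99 and 0.90 ± 1.03 and were not called. Fau, made as a ubiquitin-like fusion, had a change of 2.42 ± 1.18 (edgeR adjusted p = 0.12).

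Of the members below 0 in this comparison, Rps15a was the well-counted one. It had 42.9, 37.8 and 51.4 CPM in cortex input, 23.2, 35.4 and 21.3 in cortex TRAP, 21.9, 40.9 and 35.9 in the synaptoneurosome input and 31.9, 27.7 and 32.7 in PAP TRAP. Every cortex TRAP library lay below every cortex input, the only member of which this was true (27.8% of all genes), and the change of -0.73 ± 0.32 missed the threshold (edgeR adjusted p = 0.0852). It passed without cortex TRAP replicate 2 (-1.13, adjusted p = 0.0202) and in a fit of both groups alone (-0.76, adjusted p = 0.0486). By its longest annotated transcript, Rps15a is also the longest of the members, at 5179 bases. Rpl15 (-0.18) and Rps2 (0.16) lay near 0.

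The number of called members rested on the libraries of both groups. It was 15 without cortex input replicate 1, 16 without replicate 2 and 13 without replicate 3, and 19, 15 and 15 without cortex TRAP replicates 1, 2 and 3. The members' median stayed between 1.23 and 1.47 in all 12 fits that left out a library. All 26 astrocyte markers were higher and all 20 neuron markers lower in cortex TRAP than in cortex input; the part of this in the ribosomal protein values was not tested.

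The comparison of PAP TRAP with synaptoneurosome input does the same within the fraction, with the same limit. Genes of the mitochondrial chromosome held 35.6 to 47.6% of gene counts in PAP TRAP, against 1.03 to 1.28% in cortex TRAP. Between PAP TRAP and its input, 12 of 26 astrocyte markers were higher and 0 lower. Their median change was 0.99, against 4.29 in cortex TRAP against cortex input. Of 20 neuron markers, 3 were lower and 1 higher, and of 14 neuropil messages, 8 were higher and 0 lower. The part of this in the ribosomal protein values was not tested. None of the 76 members passed edgeR's test, beside 4.53% of all genes (1.53% lower), and DESeq2 called 1 member (Rpl5). At an unadjusted p under 0.05 there were 2, Rpl5 and Rps27rt. The median change was 0.16, or 0.15 with members at 0 counts in a group set to their bound, beside 0.06 for all genes, and 50 members lay above 0. The groups did not overlap in 7 members that were higher in PAP TRAP and 1 that was lower, beside 12.2% and 9.39% of all genes. For Rpl41 the change was 0.34 ± 0.37, with an interval from -0.43 to 1.11, so a rise of the size seen in cortex TRAP lies outside it. The median width of the 95% interval was 2.59 on the log2 scale. Of the 74 members with counts in both groups, 19 had intervals that lay wholly under a 2-fold rise, 30 wholly above a 2-fold fall, and 7 within both, so for most members the interval held a 2-fold difference in at least 1 direction.

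Rpl5 gave the largest fitted difference of that comparison among members with counts in both groups. It had 0.72, 1.26 and 1.28 CPM in cortex input, 0.85, 1.24 and 1.31 in cortex TRAP, 1.22, 1.79 and 2.7 in the synaptoneurosome input and 0.263, 0.0826 and 0.0777 in PAP TRAP. All 3 PAP TRAP libraries were the lowest, with 3, 1 and 1 counts. The change against synaptoneurosome input was -3.68 ± 1.16 (edgeR adjusted p = 0.0763; DESeq2 -3.83, adjusted p = 0.0147). Only 6.16% of its windows are unique, and it shares 1047 exon bases with Fam69a on the other strand, so these few counts are uncertain.

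PAP TRAP against cortex TRAP compares both purified RNAs. Of the 76 members, 21 were lower in PAP TRAP (8 small and 13 large subunit) and 0 were higher. Of all genes tested, 14.6% were lower and 19.3% higher. The median change was -1.22 for both subunits, beside -0.28 for all genes, and 75 members lay below 0. In 59 members all 3 PAP TRAP libraries lay under all 3 cortex TRAP libraries, beside 26.1% of all genes. This comparison and that of cortex TRAP with cortex input share the cortex TRAP libraries, so a member high in those libraries moves in both.

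The 5 largest called falls among well-counted members were those of Rpl37a, Rpl41, Rps14, Rplp2 and Rpl30. Rpl41 was 3.55 times lower in PAP TRAP than in cortex TRAP (2.09 to 6.05, edgeR adjusted p = 0.000764). Rps14 was 3.31 times lower (1.89 to 5.78, edgeR adjusted p = 0.00191), and Rplp2 3.29 times lower (1.77 to 6.12, edgeR adjusted p = 0.00434). For these 3 the PAP TRAP libraries overlapped the synaptoneurosome inputs and lay below every cortex TRAP library. Rpl30, an RNA-binding protein of the large subunit, had 6.26, 5.32 and 5.99 CPM in cortex input, 18.6, 22.1 and 22.7 in cortex TRAP, 4.25, 6.27 and 6.56 in the synaptoneurosome input and 5.27, 11.3 and 6.14 in PAP TRAP. Its fall of -1.48 ± 0.46 (edgeR adjusted p = 0.0187) lost its call in 5 of 12 fits without a library (adjusted p up to 0.0878). Rpl37a had a change of -2.90 ± 0.71, which was -0.86 (edgeR adjusted p = 0.321) without cortex TRAP replicate 1.

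Rpl32 fell as well, from 38.5, 44 and 42.5 CPM in cortex TRAP to 9.57, 22 and 15.5 in PAP TRAP, with 21.6, 18.1 and 15.1 in cortex input and 23.4, 14.9 and 15.1 in synaptoneurosome input (-1.41 ± 0.36, edgeR adjusted p = 0.00576). PAP TRAP libraries of Rpl32 overlapped both inputs. Of the stalk, Rplp1 fell with Rplp2 (-1.17 ± 0.38, edgeR adjusted p = 0.0214, lost in 6 of 12 fits without a library), and Rplp0 changed by -0.76 ± 0.49 (edgeR adjusted p = 0.246). Of the tunnel proteins, Rpl22 (-1.32 ± 0.39, adjusted p = 0.0133), Rpl26 (-1.60 ± 0.59, adjusted p = 0.0444) and Rpl39 (-1.41 ± 0.53, adjusted p = 0.0484) fell by the same edgeR test. The calls of Rpl26 and Rpl39 were each lost in 10 of 12 fits without a library. Rpl13a (-0.74 ± 0.37, edgeR adjusted p = 0.127) and Rps3 (-0.41) were not called.

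Rpl4 did not follow the others, with a change of -0.11 ± 0.25 (interval -0.64 to 0.42, edgeR adjusted p = 0.763). Rps15a changed by 0.21 ± 0.32 and was the single member above 0. The count of called members was 5 without PAP TRAP replicate 1, 24 without replicate 2 and 7 without replicate 3. It was 7, 7 and 6 without cortex TRAP replicates 1, 2 and 3. It was 8, 12 and 8 without cortex input replicates 1, 2 and 3, which belong to neither group but enter the filter, the scaling and the shared estimate of spread. The median lay between -1.54 and -1.03 in these fits. PAP TRAP replicate 2 was the highest of its group for 56 of the 76 members, replicate 1 for 11 and replicate 3 for 9, with a median of 5.66 CPM against 4.04 and 3.96. In PAP TRAP, 24 of 26 astrocyte markers were lower and 17 of 20 neuron markers and 13 of 14 neuropil messages higher than in cortex TRAP, and the part of this in the ribosomal protein values was not tested.

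Synaptoneurosome input against cortex input gave 0 called members by edgeR, beside 9.32% of all genes (7.26% higher and 2.07% lower), and 3 at an unadjusted p under 0.05 (Rpl4, Rpl27 and Rps12). DESeq2 called 1. The median change was 0.01, beside -0.14 for all genes. Of 74 members with counts in both inputs, 9 had an interval within 2-fold in both directions, and the median width was 2.60 on the log2 scale. The groups did not overlap in 2 members that were higher and 6 that were lower, beside 16.4% and 20.1% of all genes. Rpl4 was the nearest to a call, at 0.82 ± 0.26 (edgeR adjusted p = 0.0517), and it passed in 13 of 24 alternative fits, with 0.92 and an adjusted p of 0.0271 under RLE scaling. Its 3 synaptoneurosome inputs lay above all 3 cortex inputs. Rps12 had 5, 9 and 11 counts in the cortex inputs, 17, 12 and 13 in cortex TRAP, none in the synaptoneurosome input and 0, 5 and 4 in PAP TRAP. Rps19bp1, which the symbol rule picks but which is no ribosomal protein, fell by 3.04 ± 0.91 on the log2 scale (edgeR adjusted p = 0.0413, lost in 8 of 12 fits without a library, adjusted p up to 0.155). Between these inputs, 20 of 26 astrocyte markers were higher and 0 lower (median 1.70). Of 14 microglia and macrophage markers 9 were higher, and of 14 neuropil messages 6, with 0 lower in both. Of 20 neuron markers, 2 were higher and 4 lower. The part of this in the ribosomal protein values was not tested.

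Whether the enrichment over input differed between the fraction and the whole tissue was tested as an interaction. The change from synaptoneurosome input to PAP TRAP was smaller than that from cortex input to cortex TRAP for 4 members, Rpl41 (-1.84 ± 0.52, edgeR adjusted p = 0.0154), Rpl8 (-1.69 ± 0.54, 0.0305), Rps14 (-1.71 ± 0.54, 0.0312) and Rplp2 (-1.74 ± 0.60, 0.0485), and larger for 0. Of all genes, 20.2% were called in this test, 7.32% lower and 12.9% higher, so 4 of 76 is no larger a share than that of all genes. The members' median was -1.29, beside 0.03 for all genes, and 22 members had an unadjusted p under 0.05. The 4 calls rested on single libraries: leaving out 1 library ended the call of Rpl41 in 4 of 12 fits, of Rps14 in 8, of Rpl8 in 9 and of Rplp2 in 10. The count was 0 without cortex input replicate 1 or 3 or synaptoneurosome input replicate 2, 1 without cortex input replicate 2, cortex TRAP replicate 1 or 3 or PAP TRAP replicate 1, and 2 without PAP TRAP replicate 3. It was 8 without synaptoneurosome input replicate 3 and 11 without PAP TRAP replicate 2. In the same interaction 25 of 26 astrocyte markers were lower and 0 higher, with a median of -3.16. Of 20 neuron markers, 17 were higher and 0 lower (median 3.04), as were 13 of 14 neuropil messages (median 3.45). The part of this in the ribosomal protein values was not tested.

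Ribosomal protein messages are short, and the median change of all genes tested differed with transcript length. The members' median transcript was 937 bases long, against 2706 for all protein-coding genes. Among all genes tested, the class with the shortest transcripts of 5 equal classes (up to 1830 bases) had a median change of 0.91 in cortex TRAP against cortex input, -1.27 in PAP TRAP against cortex TRAP and -0.84 in the interaction. The class with the longest had -0.77, 0.89 and 0.88. The 65 tested members of that length had medians of 1.48, -1.23 and -1.34. In PAP TRAP against cortex TRAP the members' median therefore lay near that of short transcripts, and in cortex TRAP against cortex input and in the interaction their medians lay further from 0.

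With offsets corrected for transcript length, 8 members were called in cortex TRAP against cortex input, all higher, and the median was 0.56 beside 0.17 for all genes. The largest of these were Rpl37a (2.01), Rpl18 (1.92), Rps20 (1.49), Rpl22 (1.38), Rpl41 (1.15) and Rplp2 (1.12). Rpl18 and Rps20 entered at 2989 and 3706 bases, their longest annotated forms, and shorter forms were not tried. In PAP TRAP against cortex TRAP the corrected median was 0.01, beside -0.21 for all genes. Corrected calls were Rpl4 higher (0.94, edgeR adjusted p = 0.0143) and Rpl7l1 (-2.82, adjusted p = 0.0297) and Rps20 (-1.41, adjusted p = 0.0396) lower. The interaction then had 0 calls and a median of -0.27. The cause of the relation with length was not tested.

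**Figure D5:**
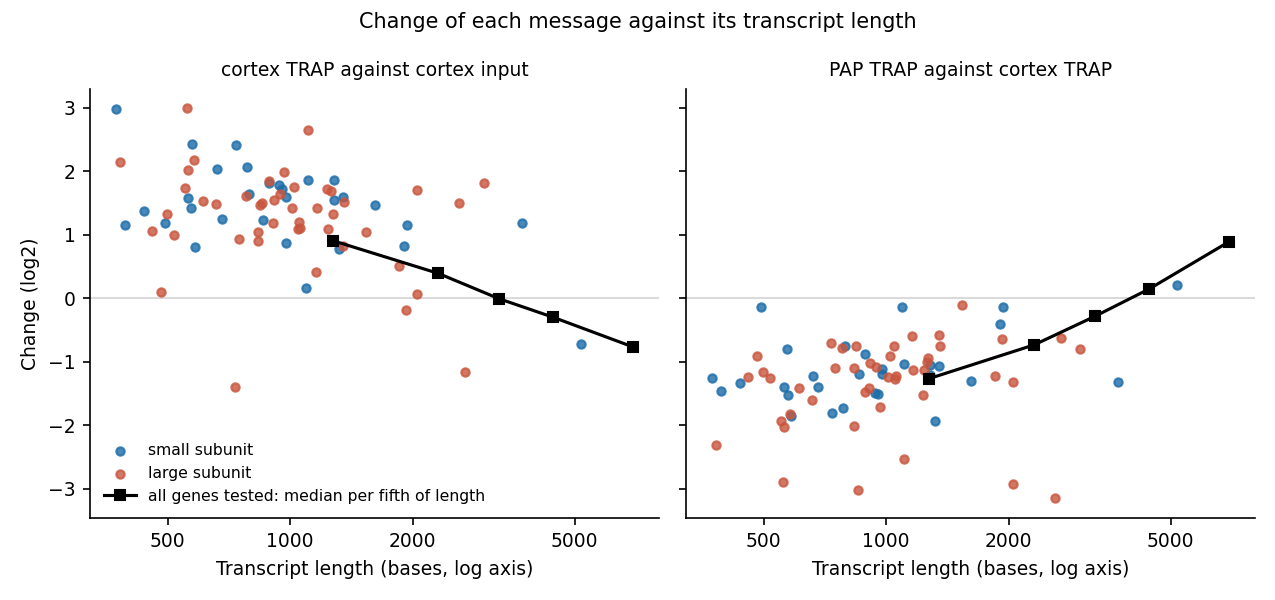
Log2 change of each tested ribosomal protein gene against its transcript length in bases (log axis), for cortex TRAP against cortex input and PAP TRAP against cortex TRAP, with the median of all genes in each of 5 length classes. The shortest class of all genes has a median of 0.91 in the first and -1.27 in the second comparison. Rps15a, at 5179 bases by its longest annotated transcript, is the longest member.

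In cortex TRAP against cortex input and in PAP TRAP against cortex TRAP, the members' medians were similar with and without a run at the annotated start. The same held across classes of unique windows. These splits were chosen after the values had been seen. The 13 tested members with the run at the annotated start had a median of 1.58 in cortex TRAP against cortex input and -1.25 in PAP TRAP against cortex TRAP, and the 46 with an entry but without the run had 1.40 and -1.20. In synaptoneurosome input against cortex input the medians lay further apart, at -0.26 with the run and 0.15 without. With the C allowed within 5 bases of the start, they were 0.13 and -0.03 there. Of the members with a run printed above, Rpl14 had 7.31, 8.31 and 5.81 CPM in cortex input, 16.1, 19.7 and 21.6 in cortex TRAP, 8.51, 8.06 and 6.37 in the synaptoneurosome input and 6.93, 10.9 and 6.37 in PAP TRAP. Its cortex TRAP libraries were the highest. It rose by 1.42 ± 0.44 on the log2 scale in cortex TRAP (edgeR adjusted p = 0.0169, lost in 4 of 12 fits without a library) and was lower in PAP TRAP than in cortex TRAP (-1.24 ± 0.44, adjusted p = 0.0361, lost in 8 of 12). Rps10 rose in cortex TRAP (1.81 ± 0.61, edgeR adjusted p = 0.0266, lost in 6 of 12). Rps21 was lower in PAP TRAP than in cortex TRAP (-1.45 ± 0.48, edgeR adjusted p = 0.0262, lost in 7 of 12) and missed the threshold in cortex TRAP against cortex input (1.16 ± 0.48, adjusted p = 0.0669). Members with under 25%, 25 to 75% and at least 75% unique windows had medians between 1.40 and 1.54 in the first comparison. Calls were fewer where few windows were unique, with 2 of 15, 18 of 46 and 9 of 15 higher in the first comparison and 1 of 15, 14 of 46 and 6 of 15 lower in the second.

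Of the paralogs, Rpl36al had 1424 counts in all libraries, Rps27l 1044, Rpl22l1 638 and Rpl7l1 509. Rps27l, a p53 target close to Rps27, had 5.21, 1.26 and 1.9 CPM in cortex input and 10.4, 20.4 and 14.8 in cortex TRAP, a rise of 2.44 ± 0.79 (edgeR adjusted p = 0.0214, lost in 4 of 12 fits without a library). Rpl22l1, the paralog of Rpl22, fell from 5.66, 11.9 and 9.56 CPM in cortex TRAP to 1.93, 2.73 and 2.41 in PAP TRAP (-1.93 ± 0.68, edgeR adjusted p = 0.0339, lost in 9 of 12). Rpl7l1, grouped with the large subunit by its symbol alone, had 7.14, 7.8 and 6.87 CPM in cortex TRAP and 0.614, 1.74 and 0.0777 in PAP TRAP (-3.15 ± 0.98, edgeR adjusted p = 0.0178). That last call was lost in a single fit, without PAP TRAP replicate 1 (edgeR adjusted p = 0.0657). Its partner Rpl7 changed by -1.14 (edgeR adjusted p = 0.23). Neither Rpl36al (-1.28, adjusted p = 0.075) nor its partner Rpl36a was called.

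Beside the members stand other ribosomal proteins outside the symbol rule. Rpl10a, whose row can hold RNA of both the native gene and the transgene, had 20, 20 and 67 counts in the cortex inputs, 132, 58 and 121 in cortex TRAP, 0, 4 and 10 in the synaptoneurosome input and 16, 28 and 33 in PAP TRAP. Its change in cortex TRAP against cortex input was 1.58 ± 0.89 (edgeR adjusted p = 0.182). Rack1, a small subunit protein that docks kinases, had 19.8, 21.3 and 16.7 CPM in cortex input and 76, 64 and 34.9 in cortex TRAP, a rise of 1.60 ± 0.39 (edgeR adjusted p = 0.0032).

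Messages of the wider translation machinery are given by their counts, beside 15.9% higher and 19.5% lower of all genes in cortex TRAP against cortex input and 19.3% higher and 14.6% lower in PAP TRAP against cortex TRAP. Of 31 initiation factors, 7 were higher (Eif4g2 1.38, Eif3f 1.85) and 2 lower (Eif4a2 -1.35, Eif3a -0.85) in cortex TRAP against cortex input, and 1 was higher and 13 lower in PAP TRAP against cortex TRAP (Eif1 -2.08, Eif5a -1.77). Of 11 elongation and release factors, 2 were higher and 1 lower in the first comparison, Eef1a2 at -1.83 being the lower one, and 2 were higher and 2 lower in the second. Eef2, which moves the ribosome along the message, was 1.03 higher on the log2 scale in PAP TRAP than in synaptoneurosome input (edgeR adjusted p = 0.0436). Of 20 other messages known to start with a TOP, 7 were higher and 1 lower in the first comparison, and 2 (Eef2, Pabpc1) higher and 4 lower in the second. Of 29 ribosome assembly factors, 1 was higher and 2 lower in the first, and 1 higher and 5 lower in the second. Of 21 regulators, 4 were higher and 3 lower in the first comparison, with Eif4ebp2, an mTOR substrate that holds back initiation, at 2.20.

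Mitochondrial ribosomal proteins are coded in the nucleus and belong to another ribosome. Of 73 tested, 16 were higher and 0 lower in cortex TRAP against cortex input, beside 15.9% and 19.5% of all genes. Their median was 0.87, with Mrpl17 at 2.20 and Mrpl30 at 1.79. In PAP TRAP against cortex TRAP 0 were higher and 26 lower, beside 19.3% and 14.6% of all genes. Their median there was -1.40, with Mrpl36 at -2.80 and Mrpl30 at -1.67. The median transcript of the 73 was 1398 bases long, within the shortest length class of all genes (up to 1830 bases). That class had medians of 0.91 in cortex TRAP against cortex input and -1.27 in PAP TRAP against cortex TRAP, near those of this list. The part of length in these values was not tested.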

How the data were processed

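The deposited values were whole-number counts of reads per gene, not normalized by the authors, judged from the files. The tools named in the submitters' processing notes are STAR, Bowtie2, HTSeq and Trimmomatic 0.32, without roles. Strand setting, annotation and build: not given in the sources used here. Per the labels' protocols, cDNA from 2 ng of RNA was amplified by SPIA, without molecular identifiers, so counts are not independent molecules and the limit for 0 counts (3 counts) covers counting error only. Rows naming no gene held 20.3 to 55.5% of reads and stayed out. Names, lengths and GC came from GENCODE M21, start sequences from RefSeq. Length, GC and windows were those of the longest annotated transcript of a gene, a protein-coding one where there was one.

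Genes were kept by filterByExpr (minimum count 10, minimum total 15). All 12 libraries were fitted together by edgeR 4.0.16 quasi-likelihood with TMM scaling (R 4.3.3), which was tested on simulated data; intervals are 95%. Alternatives were RLE scaling, no filter, DESeq2 1.42.0, the compared groups alone, a replicate block, GC- or length-corrected offsets, mitochondrial genes left out, a minimum fold of 1.5, pseudogene rows added, and each library left out. Named genes were the 5 largest called rises and falls of at least 3 mean log2 CPM, fixed role groups, paralogs with their partners, untested members and, per other list, up to 2 called genes each way; others were chosen after their values were seen; a few picked this way are not reported here. Members and lists were chosen with earlier results of these data known.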

Additional observations from a re-analysis of the deposited data

Results flagged for a closer look

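For 4 ribosomal protein genes the enrichment over input differed between the whole tissue and the fraction by a test of the difference itself (edgeR quasi-likelihood interaction, 3 libraries a group). The difference was -1.841 for Rpl41, -1.693 for Rpl8, -1.737 for Rplp2 and -1.709 for Rps14 on the log2 scale. Of all genes, 20.2% were called in this test and 7.32% were lower. Leaving out 1 library ended the call of Rpl41 in 4 of 12 fits, of Rps14 in 8, of Rpl8 in 9 and of Rplp2 in 10. With length-corrected offsets none of the 4 was called. In the main fit of this test 25 of 26 astrocyte markers were lower (median -3.16) and 17 of 20 neuron markers higher (median 3.04). The part of this in the ribosomal protein values was not tested.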

How the results depend on the processing

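Leaving out 1 library at a time gave 13 to 33 called members in cortex TRAP against cortex input (median 1.23 to 1.47), 5 to 24 in PAP TRAP against cortex TRAP (median -1.54 to -1.03), 0 in PAP TRAP against synaptoneurosome input (median -0.08 to 0.34), 0 to 1 in synaptoneurosome input against cortex input (median -0.07 to 0.09) and 0 to 11 in the interaction (median -1.48 to -1.09). Shares of nuclear counts ranged from 0.149 to 0.166% in cortex input, 0.325 to 0.344% in cortex TRAP, 0.136 to 0.169% in the synaptoneurosome input and 0.121 to 0.159% in PAP TRAP. Correlations between libraries of their deviations from the group means were small. They were 0.00575 to 0.0804 for the 18 pairs of the same replicate number, so all of these were positive. For the 36 pairs of different numbers they were -0.0697 to 0.0551. Whether replicate numbers pair the libraries was not tested. The replicate block gave 27, 21, 0, 1 and 5 called members, in the order of the ranges above.

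In cortex TRAP against cortex input 19 members were called with no filter, 45 with the compared groups alone (44 higher, 1 lower), 18 at a minimum fold of 1.5 and 8 with length-corrected offsets, with or without the replicate block (median 0.56 in both). In PAP TRAP against cortex TRAP 9 were called with no filter, 7 with the groups alone, 13 without mitochondrial genes, 8 at the minimum fold and 3 with length-corrected offsets, with or without the block (median 0.0083, and 0.0059 with the block). PAP TRAP against synaptoneurosome input had 1 call by DESeq2. Synaptoneurosome input against cortex input had 1 call by RLE, DESeq2, the groups alone, the block, GC or length correction with or without the block, and without mitochondrial genes (median 0.26 with length correction). The interaction had 7 calls by RLE, 17 by DESeq2, 1 at the minimum fold and 0 with length correction, with or without the block (median -0.27, and -0.22 with the block). With length correction, without and with the block, changes in PAP TRAP against cortex TRAP turned positive for Rps9 (0.16, 0.18), Rplp1 (0.0799, 0.0871), Rps26 (0.0103, 0.003295), Rpl14 (0.11, 0.11), Rpl4 (0.94, 0.92), Rps15 (0.53, 0.49) and Rpl23 (0.13, 0.14); the cause was not tested. As a share of all gene counts, mitochondrial ones included, the members took 0.0815% in cortex input, 0.331% in cortex TRAP, 0.0161% in the synaptoneurosome inputs and 0.0858% in PAP TRAP. Cortex TRAP then stood at 4.06 times its input and PAP TRAP at 5.32 times its input. The start run was found in 47.7% of members within 5 bases of the start. Leaving out mitochondrial genes moved the median of all genes by 0.163 in PAP TRAP against cortex TRAP.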
